A study of Mus musculus with 12 samples.

Results

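The E2F transcription factors and the retinoblastoma (pocket) proteins form the switch by which a cell leaves quiescence and commits to DNA replication. Their transcripts were followed through 3 states of neural stem cells from the adult mouse subventricular zone. The members were chosen by name as every probe set whose only gene symbol in the platform annotation was E2f1, E2f2, E2f3, E2f4, E2f5, E2f7, E2f8, Rb1, Rbl1 or Rbl2. This gave 10 of the 18193 named genes and 22 of the 45037 probe sets of the Affymetrix MOE 430 2.0 array. The cells were sorted by flow cytometry from male C57B6J mice as quiescent cells, as quiescent cells recovering 48 h after irradiation, or as activated cells. Of 12 arrays described, 10 had values: quiescent replicates 1, 2 and 4, irradiated replicates 1 to 4 and activated replicates 1 to 3. The sources used here do not give the radiation dose, the sort markers, the age of the mice or how many mice went into a sample. Separate animals are not named for the replicates either, so each p-value speaks of the spread among arrays, part of which may be technical.

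As background, E2f1, E2f2 and E2f3 encode the activating E2Fs, which bind DNA with a DP partner and drive genes of DNA synthesis. The pocket proteins Rb (Rb1), p107 (Rbl1) and p130 (Rbl2) bind and silence E2Fs until cyclin-dependent kinases phosphorylate them. E2f4 and E2f5 encode E2Fs that act mainly as repressors together with p107 and p130, and p130 with E2F4 and the MuvB proteins forms the DREAM complex of resting cells. E2f7 and E2f8 encode the atypical E2Fs, which bind DNA without a DP partner and without a pocket protein and which are themselves switched on in S phase. In the adult subventricular zone most stem cells rest outside the cell cycle, and activated ones divide.

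Values are deposited intensities on a linear scale, and values up to 10 are described as near the lower limit, where low values pile up. Between 56.6% and 59.2% of the probe sets of each array were near it, and the 75th percentiles ran from 83 to 104. Differences are in log2(intensity + 16) with the standard error (SE) of the limma fit, and p-values are those of limma adjusted by the Benjamini-Hochberg method over all 18193 genes, or over all 45037 probe sets where a probe set is named as such. The offset of 16 makes the change of genes near the limit look smaller than it is. The summed intensity of 8 astroglial stem cell markers lay between 94583 and 104401 on the quiescent and irradiated arrays and between 23083 and 35226 on the activated arrays. The sum of 7 markers of activated and cycling cells was 753 to 3262 on the former and 43093 to 44342 on the latter. The sum of 7 neuroblast genes was 165 to 1841 on the former and 14981 to 20856 on the latter. The sum of 6 myelin genes was 9569 to 17236 on the quiescent and irradiated arrays against 591 to 3637 on the activated ones. Of the neuroblast genes 3 rose and of the myelin genes 4 fell between quiescent and activated cells. Of 5 choroid plexus genes only Ttr fell, from 9992 to 19809 on the quiescent and irradiated arrays to 6 on each activated array, and the other 4 were not called. All 6 endothelial, 6 microglial, 6 mature neuron and 4 oligodendrocyte precursor genes measured missed the threshold between activated and quiescent cells. The sum of the microglial genes was 35 to 1003 on quiescent, 118 to 2652 on irradiated and 168 to 4446 on activated arrays. Csf1r read 2520 and C1qb 1424 on activated replicate 3, and C1qb 2625 on irradiated replicate 3. The neuron genes summed to 590 to 13729, 974 to 4054 and 323 to 839 in the same order. Of 5 ependymal genes only Rarres2 was called, and it fell (log2 difference -4.85 ± 0.85, adjusted p = 0.016). The part of other cells in the member values was not tested. In sorted bulk RNA, fewer expressing cells and less RNA per cell cannot be told apart.

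E2f2 and Rbl1 (p107), both near the lower limit in quiescent cells, rose in activated cells. They were 2 of the 10 genes, where 2.9% of all genes were called higher, 3.12% lower and 6.02% in either direction. None of the 10 was called lower, and 6 had an unadjusted p under 0.05 in limma, as did 2930 of all 18193 genes. Activated arrays lay wholly above the quiescent arrays for 6 genes (E2f1, E2f2, E2f3, E2f7, E2f8 and Rbl1), against 9.84% of all genes, and below them for none, against 9.47%. The median log2 difference of the 10 genes was 1.81, and that of all genes was 0. Against irradiated quiescent cells, E2f2, E2f3, E2f8 and Rbl1 rose, 4 of the 10, where 3.41% of genes were called higher, 3.69% lower and 7.1% in either direction, and none of the 10 was called lower. Their arrays did not overlap upward for 6 genes (8.23% of all genes) and downward for 1, E2f5 (7.96%). The comparisons with quiescent and with irradiated cells share the 3 activated arrays, so they are not independent of each other.

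**Figure D1:**
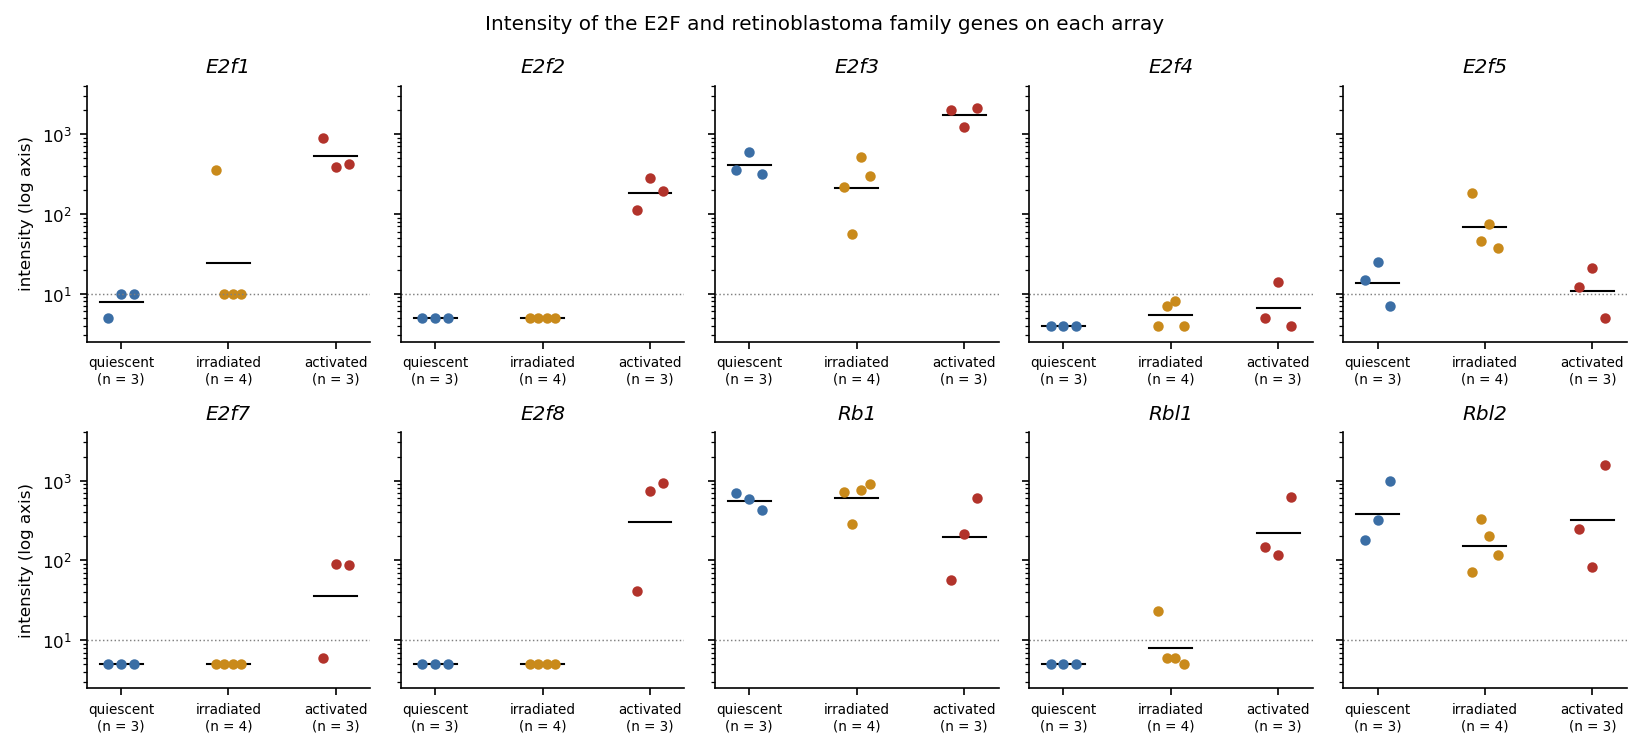
Intensity of each of the 10 genes (log axis) on the 3 quiescent, 4 irradiated and 3 activated arrays, with 1 point per array, from the probe set with the highest mean; the short line is the geometric mean of a group and the dotted line marks an intensity of 10. E2f2, E2f7 and E2f8 sit at 5 on all 7 quiescent and irradiated arrays, and a single irradiated array stands out for E2f1.

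The start sites of the members were inspected for letters known from genes of the cell cycle, since several members moved together. RefSeq promoter windows (GRCm38.p6, 250 bases before to 50 after the start) were matched by symbol for 7 of the 10 genes, with 9 windows. The E2F site was searched as TTTCCCGC, TTTCGCGC, TTTGGCGC or TTTGCCGC and the cell cycle homology element (CHR), through which DREAM and its successor complexes act, as TTTGAA or TTCGAA, on both strands. Any of the 4 E2F forms occurred in 2.26% of the 32851 windows in the table, and either CHR form in 19.2%. The single forms occurred in 1.07%, 0.32%, 0.51% and 0.44% of windows for the E2F site and in 17.9% and 1.56% for the CHR, in the order given. An E2F form was found for 4 members (E2f2, E2f3, E2f7 and Rbl1) and a CHR form for 4 (E2f2, E2f3, E2f8 and Rbl2), while the window of E2f1 and the second window of E2f3 held none of these letters. A match is a description of the letters and not a measured binding site. The stretches below are shown because they hold the matches of the members whose activated arrays lay above all others, whether or not the member was called. They run 5′ to 3′ on the gene's strand, with matches in capitals.
Rbl1, chr2:157204535-157204654, minus strand, the 120 bases before the start: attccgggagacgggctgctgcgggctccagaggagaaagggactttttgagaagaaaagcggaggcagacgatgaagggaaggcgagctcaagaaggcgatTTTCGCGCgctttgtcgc
E2f3, chr13:29986064-29986183, minus strand, the 120 bases before the start: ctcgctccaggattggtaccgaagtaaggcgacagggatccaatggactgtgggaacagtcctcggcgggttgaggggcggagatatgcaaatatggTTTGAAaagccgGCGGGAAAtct
E2f8, chr7:48881597-48881716, minus strand, the 120 bases before the start: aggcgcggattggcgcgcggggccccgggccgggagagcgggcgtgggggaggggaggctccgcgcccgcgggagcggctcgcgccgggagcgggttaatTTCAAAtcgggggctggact
E2f7, chr10:110745201-110745288, plus strand, 88 bases around the match: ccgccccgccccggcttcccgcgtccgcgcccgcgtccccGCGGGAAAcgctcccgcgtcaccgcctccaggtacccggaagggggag
E2f2, chr4:136172305-136172323, plus strand, 19 bases after the start: gcatatagTTTGGCGCtaa
The E2F form of Rbl1 began 18 bases before the start. In E2f3 a CHR form began 23 bases and an E2F form, read on the opposite strand, 11 bases before the start. The CHR form of E2f8 began 20 bases before the start, on the opposite strand, and the E2F form of E2f7 lay further off, at 198 bases. The E2F form of E2f2 lay inside the transcribed part, from base 40, and a second E2f2 window held a CHR form at 31 bases. The CHR form of Rbl2 lay 201 bases before the start. Among the 14452 tested genes with a window, 550 (3.81%) held an E2F form. The share was 70 of 436 (16.06%) for genes called higher in activated against quiescent cells and 16 of 443 (3.61%) for genes called lower, given here as a description with no test.

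E2f1, the archetypal activating E2F, was near the lower limit in quiescent cells and present in all activated samples. Its probe set 1417878_at read 5, 10 and 10 on the quiescent arrays, 359, 10, 10 and 10 on the irradiated arrays and 890, 383 and 423 on the activated arrays. All activated arrays stood above every other array, and irradiated replicate 1 came close to them. The activated mean was 565.33 ± 282 (SD, n = 3) and the quiescent mean 8.3333 ± 2.89 (SD, n = 3), a log2 difference of 4.48 ± 1.04 that just missed the threshold (adjusted p = 0.0507). Without irradiated replicate 1, which belongs to neither group but enters the pooled spread, the SE was 0.31 and the adjusted p 6.71e-04. Against irradiated cells the log2 difference was 3.42 ± 0.97 (adjusted p = 0.0947), and without that array it was 4.38 ± 0.31 (adjusted p = 7.60e-04). Of the 27 textbook E2F targets measured, 18 were at most 10 on irradiated replicate 1, as were 18 to 22 on each of the other quiescent and irradiated arrays and 3 on each activated array. On irradiated replicate 1 4 of the 27 had their highest value of these 7 arrays (Pcna at 2003, Rfc3 at 188, Ung at 23 and Tk1 at 12), against 0 to 5 on the others. The other E2f1 probe sets carried no such signal: 1447840_x_at read 5 on all 10 arrays, and 1431875_a_at read 11 on 9 arrays and 65 on activated replicate 2.

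E2f2, an activating E2F closely related to E2f1, was the most sharply separated member. Its probe set 1455790_at read 5 on each of the 7 quiescent and irradiated arrays and 111, 281 and 196 on the activated arrays. Its other probe set, 1436434_at, also read 5 on those 7 arrays and 109, 213 and 70 on the activated ones. Activated replicate 2 was thus the highest by both probe sets, and no array of another state left the lower limit. The gene rose by a log2 difference of 3.25 ± 0.26 against quiescent cells (adjusted p = 4.50e-04) and of 3.25 ± 0.24 against irradiated cells (adjusted p = 2.80e-04). The probe set 1436434_at, tested on its own among all probe sets, rose by 2.68 ± 0.30 (adjusted p = 0.0028). The E2f2 gene calls were kept under each of the 20 alternatives run (highest adjusted p against quiescent cells 0.0242). Because 7 arrays share the same value, the spread behind these p-values comes from the 3 activated arrays alone. The same holds for E2f7 and E2f8. With only quiescent and activated arrays in the fit, the second probe set was no longer called (adjusted p = 0.0611).

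E2f3, the third activating E2F, differed from E2f1 and E2f2 in being well above the lower limit in quiescent cells. Its probe set 1427462_at read 356, 592 and 314 on the quiescent arrays, 219, 56, 523 and 300 on the irradiated arrays and 1979, 1221 and 2101 on the activated arrays. Activated arrays were all above the rest, by a log2 difference of 2.04 ± 0.69 over quiescent cells that did not pass (adjusted p = 0.179) and of 2.90 ± 0.65 over irradiated cells that did (adjusted p = 0.0383). Leaving out any 1 of 8 arrays, every array except irradiated replicates 2 and 3, ended the latter call, with a highest adjusted p of 0.125 without activated replicate 3. Without irradiated replicate 2, the lowest of its group at 56, the difference from quiescent cells was called (adjusted p = 0.0369). The other probe set, 1434564_at, showed a narrower separation: it read 156, 180 and 136 in quiescent, 156, 108, 321 and 504 in irradiated and 234, 922 and 192 in activated cells. By this probe set the activated arrays lay just above the quiescent ones and overlapped the irradiated ones. Its log2 differences were 1.08 ± 0.70 and 0.56 ± 0.66, neither called. With the mean of both probe sets the difference from irradiated cells was 1.73 ± 0.53 (adjusted p = 0.107). The annotation ties the probe sets to different sequence records, and whether these belong to the same transcripts was not tested.

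The repressor E2Fs had low intensities on most arrays. E2f4, whose protein is the main E2F of resting cells, is represented by a single probe set, 1451480_at, which read 4, 4 and 4 in quiescent, 4, 7, 8 and 4 in irradiated and 5, 14 and 4 in activated cells. Only activated replicate 2 exceeded 10, so no level of E2f4 transcript was measurable in any state. E2f5, the partner of p130, had its highest values in irradiated cells. Its probe set 1460207_s_at read 15, 25 and 7 in quiescent cells, 185, 46, 74 and 37 in irradiated cells and 12, 21 and 5 in activated cells, so the irradiated arrays lay above all 6 others. The probe set 1417444_at followed the same order at lower values: 10, 22 and 9, then 33, 19, 42 and 25, then 8, 10 and 5, with quiescent replicate 2 inside the irradiated range. Both are annotated to the same sequence record and are not independent. The log2 difference of irradiated from quiescent cells was 1.51 ± 0.48 (unadjusted p = 0.0146, adjusted p = 0.965) and that of activated from irradiated cells was -1.65 ± 0.48 (adjusted p = 0.0993), neither called. With the mean of its probe sets, E2f5 was called lower in activated than in irradiated cells (log2 difference -0.86 ± 0.21, adjusted p = 0.0471). A further probe set, 1447625_at, read 4 on all 10 arrays.

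The atypical E2Fs left the lower limit on activated arrays only, and unevenly. E2f8 read 5 on the 7 quiescent and irradiated arrays by both probe sets. On the activated arrays 1436186_at read 41, 730 and 924 and 1444319_at read 291, 240 and 12. The probe sets disagreed on which activated array was low, replicate 1 by the first and replicate 3 by the second, while replicate 2 was high by both. Without activated replicate 1 the gene, by 1436186_at, was called against quiescent cells too (adjusted p = 2.32e-07). That call rests on 2 activated arrays, at 730 and 924, which alone give its spread. For the gene, taken as 1436186_at over all arrays, the log2 difference was 4.03 ± 0.95 against quiescent cells (adjusted p = 0.0541, not called) and 4.03 ± 0.89 against irradiated cells (adjusted p = 0.0373). The latter call was lost without any 1 of 9 arrays, all but activated replicate 1, with a highest adjusted p of 0.134 without activated replicate 2. With the mean of both probe sets the gene was called against quiescent cells as well (3.33 ± 0.39, adjusted p = 0.00221). E2f7 (1437187_at) read 5 on the 7 arrays of the other states and 6, 91 and 87 on the activated arrays. Its activated replicate 1 was thus 1 unit above the lower limit, and its log2 difference of 1.57 ± 0.55 was not called (adjusted p = 0.200). Without that array the log2 difference was 2.32 and the gene was called (adjusted p = 2.90e-09), from 2 activated arrays that differed by 4 units. Being at most 10 on all 7 quiescent and irradiated arrays and above 10 on all 3 activated arrays, as E2f2 and E2f8 were, applied to 0.868% of all genes, and to 5 of the 22 member probe sets against 0.799% of all probe sets.

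**Figure D2:**
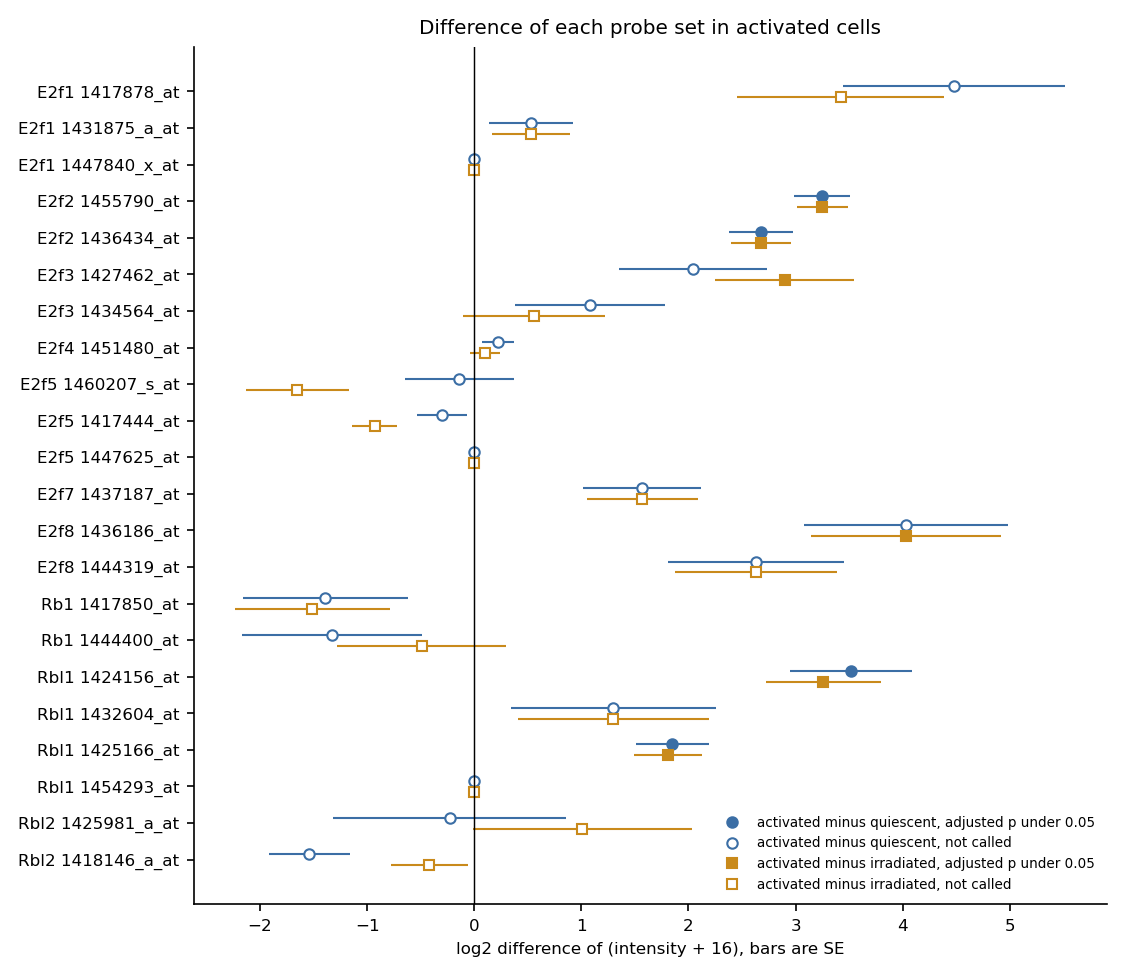
Log2 difference with SE of each of the 22 probe sets in activated minus quiescent (circles) and activated minus irradiated cells (squares); filled symbols have an adjusted p under 0.05 over all probe sets. Both E2f2 probe sets and 2 of the 4 Rbl1 probe sets are filled in both comparisons, those of Rb1 lie below 0, and 3 probe sets that never left the lower limit lie at 0.

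Tested probe set by probe set, 4 of the 22 rose in activated against quiescent cells, where 2.29% of all probe sets were called higher, and none fell (2.14% lower, 4.43% in either direction). Activated arrays lay wholly above the quiescent ones for 10 (8.66% of all probe sets) and below them for 1 (7.42%). Against irradiated cells 6 rose and none fell, where the shares were 2.68% higher, 2.45% lower and 5.14% in either direction. The arrays of that comparison did not overlap upward for 9 (7.38%) and downward for 2 (6.17%). The 6 were both E2f2 probe sets, 1424156_at and 1425166_at of Rbl1, 1427462_at of E2f3 and 1436186_at of E2f8. The calls of E2f3 (adjusted p = 0.0488) and E2f8 (0.0474) were lost in 11 and 14 of 19 alternatives. In the same comparison 1417444_at of E2f5 just missed the threshold (-0.93 ± 0.21, adjusted p = 0.0528) and was called lower in 6 of 19. Of the 22, 3 never exceeded 10 on any array and give no level of their transcript.

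The pocket protein genes did not share a pattern. Rbl1, which encodes p107, the pocket protein made by cycling cells, rose. Its probe set 1424156_at read 5, 5 and 5 in quiescent cells, 23, 6, 6 and 5 in irradiated cells and 147, 116 and 630 in activated cells. Activated arrays stood above all others and replicate 3 was the highest. The log2 difference was 3.52 ± 0.57 against quiescent cells (adjusted p = 0.0117) and 3.26 ± 0.53 against irradiated cells (adjusted p = 0.0107). Both gene calls were kept when any 1 array was left out (highest adjusted p 0.0438, without quiescent replicate 2), but the first was lost with only those 2 groups in the fit (adjusted p = 0.0889). The probe set 1425166_at, annotated to another sequence record, read 5 on each quiescent array, 6, 6, 5 and 5 on the irradiated ones and 109, 66 and 26 on the activated ones. It rose by 1.85 ± 0.34 and 1.81 ± 0.32 (adjusted p = 0.0241 and 0.0175 over all probe sets). Its call against quiescent cells was lost without any 1 quiescent array or activated replicate 2 (highest adjusted p 0.087). That against irradiated cells was lost without irradiated replicate 3 or 4 or activated replicate 2 (highest 0.0705). Adjusted over all probe sets, 1424156_at was likewise lost against quiescent cells without any 1 quiescent array (0.0514 to 0.0518). The highest activated array was replicate 1 by this probe set and replicate 3 by the other. Of the remaining Rbl1 probe sets, 1432604_at read 298 on activated replicate 3 and 5 elsewhere, and 1454293_at read 4 on all arrays.

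Rb1, which encodes the retinoblastoma protein itself, was well above the lower limit in quiescent cells, irradiated or not. Its probe set 1417850_at read 701, 580 and 423 in quiescent cells, 709, 284, 751 and 897 in irradiated cells and 57, 216 and 602 in activated cells. The activated arrays ran from 57 to 602, and replicate 3 lay among the quiescent arrays. The log2 difference was -1.39 ± 0.77 against quiescent cells (adjusted p = 0.495) and -1.51 ± 0.72 against irradiated cells (adjusted p = 0.361), neither called. The second probe set, 1444400_at, read 17, 63 and 204 in quiescent, 12, 17, 16 and 141 in irradiated and 18, 17 and 16 in activated cells, so 2 of the 3 quiescent arrays and 1 of the 4 irradiated arrays stood above the activated arrays. Its log2 difference from quiescent cells was -1.33 ± 0.84 (adjusted p = 0.661).

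Rbl2, which encodes p130, the pocket protein of resting cells, was measured by probe sets that disagreed. The probe set 1425981_a_at, used for the gene because of its higher mean, read 182, 321 and 981 in quiescent, 72, 327, 200 and 116 in irradiated and 246, 83 and 1577 in activated cells. The 3 states overlapped, with the highest quiescent and activated values on single arrays (log2 difference of activated from quiescent cells -0.23 ± 1.09, adjusted p = 1.00). The probe set 1418146_a_at was less variable and read 157, 154 and 206 in quiescent cells, 92, 30, 64 and 124 in irradiated cells and 61, 39 and 47 in activated cells. By this probe set the 3 quiescent arrays lay above all 7 others, and the activated and irradiated arrays overlapped. Its log2 difference of activated from quiescent cells was -1.54 ± 0.38 (unadjusted p = 0.00461) and missed the threshold over all probe sets (adjusted p = 0.0821). Without irradiated replicate 2 it was called lower (adjusted p = 0.0197), as with only the quiescent and activated arrays in the fit (adjusted p = 0.0371). Irradiated from quiescent cells differed by -1.11 ± 0.36 (unadjusted p = 0.0162, adjusted p = 0.952), not called. Activated replicate 3 was the highest array for Rbl2 by 1425981_a_at, for Rbl1 by 1424156_at and, among activated arrays, for Rb1 by 1417850_at. It was also the highest for E2f3 by 1427462_at and for E2f8 by 1436186_at. Among activated arrays it was the lowest by 1425166_at of Rbl1, 1444400_at of Rb1, 1434564_at of E2f3 and 1444319_at of E2f8. The microglial genes Csf1r and C1qb had their highest activated values on activated replicate 3, and a link was not tested.

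**Figure D3:**
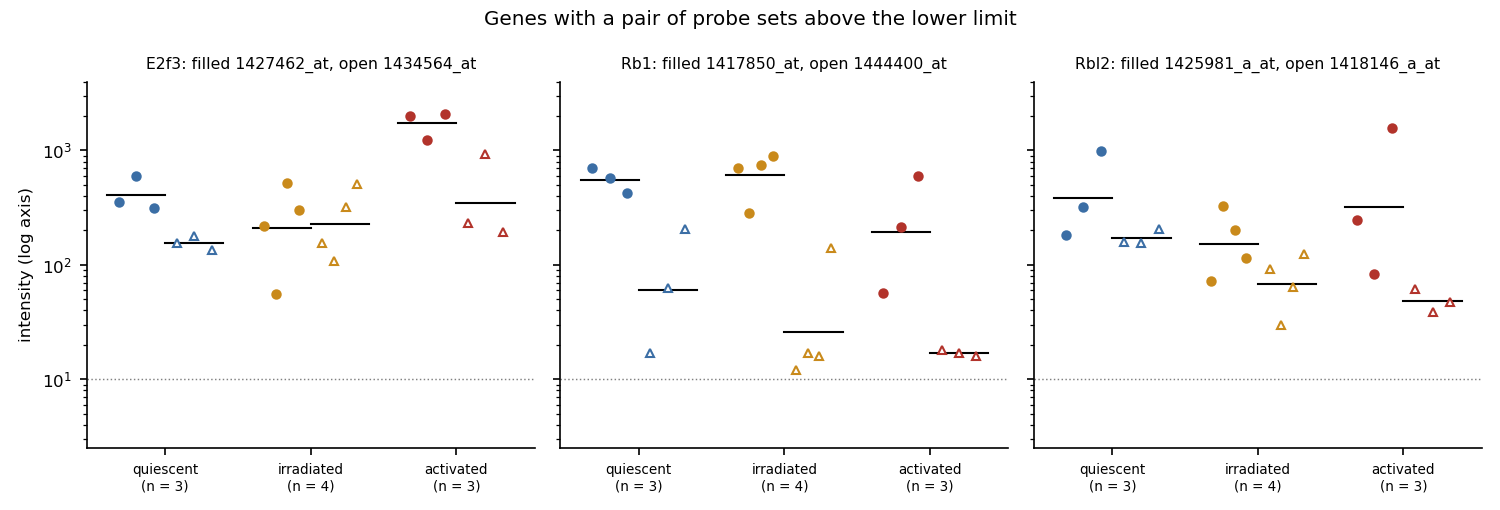
Intensity per array (log axis) by both probe sets of E2f3, Rb1 and Rbl2, filled circles for the probe set with the higher mean and open triangles for the other, with geometric means as short lines and a dotted line at an intensity of 10. By 1418146_a_at the quiescent arrays for Rbl2 (154 to 206) lie above all others, and by 1425981_a_at the states overlap.

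Between irradiated and unirradiated quiescent cells none of the 10 genes or 22 probe sets was called by limma, where 0.011% of all genes and 0.0155% of all probe sets were. An unadjusted p under 0.05 was found for 1 gene, E2f5, where 3.97% of all genes had one, and for 3 probe sets, where 3.68% had one: both E2f5 probe sets above the limit, which were higher after irradiation, and 1418146_a_at of Rbl2, which was lower. Among the genes the arrays of both groups were apart for E2f5 only, where 1.56% of all genes lay wholly higher and 1.4% wholly lower after irradiation. Among the probe sets they were apart upward for 1 (1.3%) and downward for 1 (1.29%). E2f2, E2f7 and E2f8 were at 5 on all arrays of both groups. For the other 7 genes the log2 differences ran from -1.24 ± 1.02 for Rbl2 to 1.51 ± 0.48 for E2f5, with E2f3 at -0.86 ± 0.65, Rb1 at 0.13 ± 0.72 and E2f1 at 1.07 ± 0.97.

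The levels of the genes can be ordered by state within the probe set used for each gene, the one with the highest mean. By these, E2f1, E2f2, E2f3, E2f7, E2f8 and Rbl1 were highest in activated cells, and the quiescent and irradiated arrays of each overlapped. By 1434564_at of E2f3 activated arrays overlapped irradiated ones, and by 1431875_a_at of E2f1 and 1432604_at of Rbl1 they overlapped both other states. E2f5 was highest in irradiated cells by 1460207_s_at, with quiescent and activated cells overlapping and no difference called. By 1417444_at of E2f5 the irradiated and quiescent arrays overlapped. For Rb1 quiescent and irradiated cells overlapped, and so did activated cells with both. For E2f4 and for 1425981_a_at of Rbl2 all states overlapped. By 1418146_a_at of Rbl2 the quiescent arrays lay above all others, though no difference of this probe set was called.

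The DP partners, without which the activating and repressor E2Fs do not bind DNA, had their highest values in activated cells. Tfdp1 read 212, 271 and 432 in quiescent, 60, 72, 112 and 516 in irradiated and 3157, 2585 and 2397 in activated cells. It rose against both groups (3.14 ± 0.70, adjusted p = 0.0449, and 4.21 ± 0.66, adjusted p = 0.0086). Tfdp2 read 379, 52 and 331, then 60, 6, 6 and 61, then 2499, 1371 and 1566, and it rose against irradiated cells (5.43 ± 0.78, adjusted p = 0.00556) but was not called against quiescent cells (3.07 ± 0.83, adjusted p = 0.0893). E2f6, an E2F that represses through polycomb proteins and lacks a pocket protein site, read 519, 309 and 7 in quiescent, 6, 487, 316 and 474 in irradiated and 231, 129 and 10 in activated cells, with arrays near the lower limit in each state and no call.

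Of the kinases and cyclins that phosphorylate pocket proteins, 5 of 9 rose in activated against quiescent cells and none fell (median log2 difference 3.58). Cdk4 and Cdk6, the kinases of the D cyclins, rose by 5.14 ± 0.54 and 5.34 ± 0.37, Ccnd1 by 3.58 ± 0.28, Ccnd2 by 4.86 ± 0.93 and Ccna2, which encodes the cyclin of S phase, by 6.98. Ccne1 and Ccne2, the cyclin E genes, were not called, at log2 differences of -0.14 and 0.18. Cdk4 read 163, 64 and 130 in quiescent cells and 1149, 442, 244 and 461 in irradiated cells, without overlap, a log2 difference of 1.99 ± 0.51 that was not called (adjusted p = 0.843). Of 7 inhibitors of these kinases 1 rose, Cdkn2c, which encodes an inhibitor of Cdk4 and Cdk6 and read 13 to 51 in quiescent and 409 to 707 in activated cells (3.81 ± 0.39, adjusted p = 0.00129).

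Of the 7 genes of the MuvB core and its partners 2 rose. Lin9, a core subunit, rose by 4.47 ± 0.53 (adjusted p = 0.00262) and Foxm1, the factor that joins MuvB at mitotic genes, by 4.93 ± 0.77 (adjusted p = 0.00963). Mybl2, the other factor that turns MuvB into an activator, was not called (1.26, adjusted p = 0.646), nor was Rbbp4 (0.57, adjusted p = 0.721). Of 11 chromatin proteins that work with pocket proteins 2 rose, Dnmt1 (4.77, adjusted p = 0.0348) and Ezh2 (4.38, adjusted p = 0.0147), and of 9 genes of E2F turnover and modification 1 rose, Cdc20 (5.41, adjusted p = 1.24e-06). None fell in these lists.

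Of 27 measured textbook targets, 19 rose in activated against quiescent cells, none fell and 8 were not called (median log2 difference 4.5). The cyclin genes Ccna2, Ccne1 and Ccne2, also known as targets, are counted with the kinases above and not among the 27, and of these only Ccna2 rose. Activated arrays lay wholly above the quiescent arrays for 22 of the 27. Those with the smallest adjusted p were Mcm5 of the replicative helicase (6.69, adjusted p = 2.64e-08), Chaf1b of the chromatin assembly factor (3.58, adjusted p = 7.01e-06), the glycosylase gene Ung (6.58, adjusted p = 1.27e-05) and Uhrf1, which guides maintenance DNA methylation (6.10, adjusted p = 1.71e-05). The list overlaps in content with replication genes already known to differ in these data, so its count is a description. Among targets that were not called, Tyms, the thymidylate synthase gene, read 5, 7 and 14 on the activated arrays and Orc1, of the origin recognition complex, 7 on each. Their highest values, 121 and 314, came from quiescent replicate 4. Trp73, which encodes p73, read 5 on all arrays. Of the 24 targets with a promoter window 12 held an E2F form. Against irradiated cells 18 of the 27 rose, and between irradiated and quiescent cells limma called none of the 27.

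**Figure D4:**
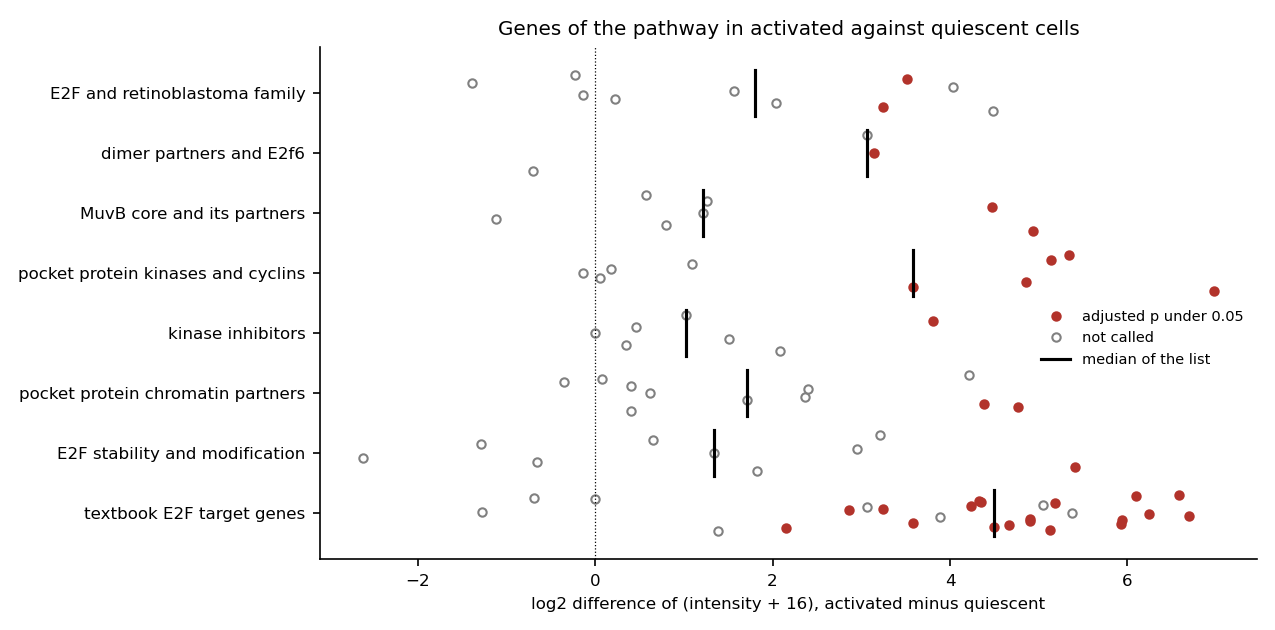
Log2 difference of activated minus quiescent cells for each gene of the E2F and retinoblastoma family and of 7 lists of the pathway, 1 point per gene, filled where the adjusted p is under 0.05, with the median of each list as a vertical line. The targets and the kinases and cyclins have medians of 4.5 and 3.58, the family itself 1.81.

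For the 6 members above an intensity of 100 on at least 3 arrays, the 3 genes with the most similar pattern were taken from 7421 others above that level as often, by Pearson correlation (r) of log2 values over the 10 arrays. The arrays share their states, so r is a description of these arrays. For E2f2 they were Cenpk, Kif2c and Mcm2 (all r = 0.999). For Rbl1 they were Cmss1 (0.981), Clspn (0.975) and Elavl4 (0.974), and for E2f1 Snrnp25 (0.987), Nol4 (0.965) and Tgif2 (0.955). For E2f3 they were Egfr (0.959), the receptor used to mark activated stem cells, Hnrnpd (0.956) and Baz1b (0.955). Rb1 had Dpm2 (0.920), Rapgef3 (0.916) and Tmem41b (0.907), and Rbl2 Wwtr1 (0.904), Wbp2 (0.856) and Epb41l2 (0.842).

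**Figure D5:**
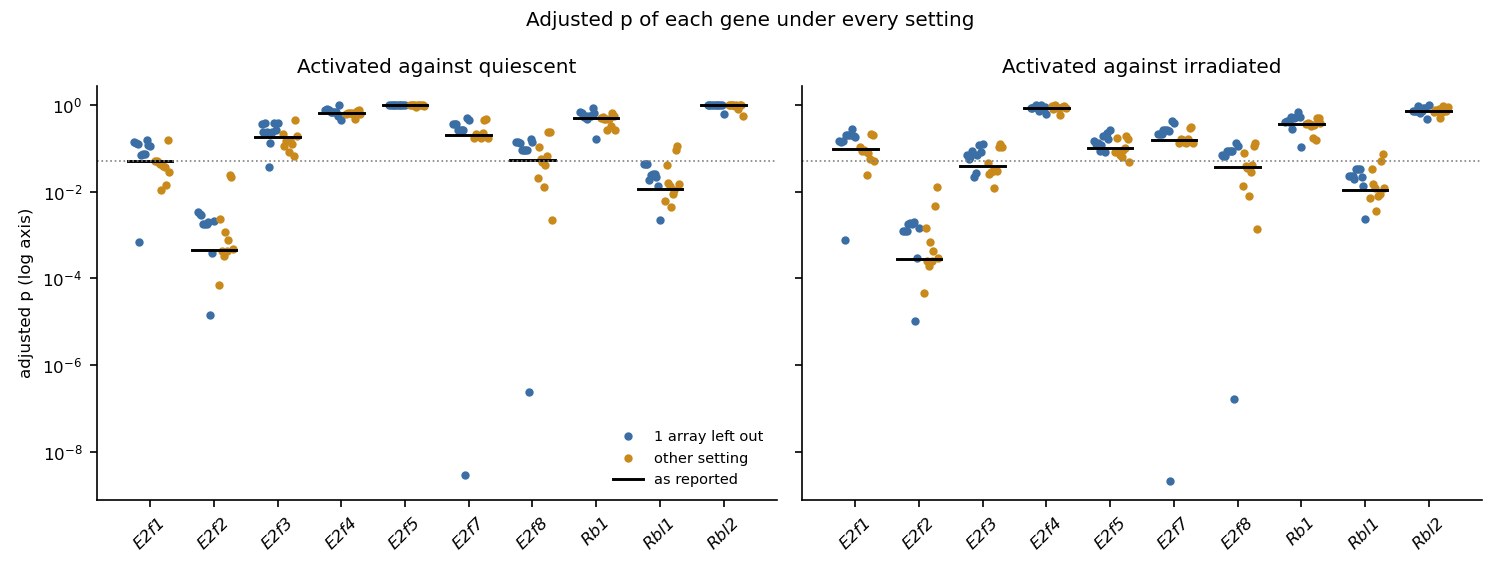
Adjusted p (log axis) of each gene in activated against quiescent and against irradiated cells as reported (line), with 1 array left out (left points) and under other settings (right points); the dotted line marks 0.05. All points of E2f2 lie under the threshold in both panels. Those of E2f1, E2f3, E2f7, E2f8 and Rbl1 lie on both sides of it in both panels, and those of E2f5 do so against irradiated cells.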

How the data were processed

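The values were whole-number intensities per probe set, which the authors deposited on a linear scale between 3 and 34883. How they were made from the scans is not given in the sources used here. Per the labels' protocols, RNA was amplified with the NuGEN Ovation Pico WTA system and hybridised to MOE 430 2.0 arrays. Values were missing for quiescent replicate 3 and for activated replicate 4, which were not analysed here.

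Of the 45037 probe sets, 34945 carried 1 gene symbol, 932 several and 9160 none. Of these, 34741 matched the RefSeq table (GRCm38.p6) by Entrez identifier. A gene was its probe set with the highest mean. Values were taken as log2(intensity + 16), with no filter, and fitted in limma 3.58.1 (R 4.3.3) with 1 mean per state, eBayes moderation (7 residual and 0.422 prior degrees of freedom) and two-sided tests, at an adjusted p of 0.05. The code was tested on simulated data. The number of arrays limits the precision. The members, lists and tests were chosen with earlier results of these data known. Named beside the members were Tfdp1, Tfdp2 and E2f6, up to 4 called genes per list with the smallest adjusted p, and the 3 genes most like a member. Ccnd2, Ccne1, Ccne2, Mybl2, Rbbp4, Tyms, Orc1, Trp73, Pcna, Rfc3, Tk1, Ttr, Csf1r, C1qb and Rarres2 were named after their values were seen. Alternatives were pseudocounts of 1 and 64, quantile and 75th percentile scaling, omission of the dimmest 50%, trend and robust moderation, array weights, the mean of probe sets, 2 groups alone, a replicate block, and each array left out.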

Additional observations from a re-analysis of the deposited data

Results flagged for a closer look

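Of the 3 states only the irradiated one has 4 arrays. Among them 12 member probe sets varied, and in 3 of these 1 array stood apart from the others by Dixon's test on the log2 scale. Chance marks about 1 in 20 such groups of normally distributed values. That rate does not hold for E2f1 and Rbl1, where the other arrays lay at or near the lower limit. E2f1 (1417878_at) read 359 on irradiated replicate 1 and 10 on the other 3 arrays. Rbl1 (1424156_at) read 23 on the same array and 5 to 6 on the others. Rb1 (1444400_at) read 141 on irradiated replicate 4 and 12 to 17 on the others.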

How the results depend on the processing

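The E2f2 calls were kept under all 20 alternatives in both comparisons with activated cells. With the replicate number as a block, the calls of Rbl1 (adjusted p = 0.114 against quiescent and 0.0748 against irradiated cells), E2f3 (0.127) and E2f8 (0.132) were lost, and genes called numbered 459, 0 and 710 for activated against quiescent, irradiated against quiescent and activated against irradiated cells (1095, 2 and 1292 as reported), with 717, 2 and 1085 probe sets (1993, 7 and 2313). Deviations of same-numbered arrays correlated at -0.031 to 0.024 and those of other pairs at -0.036 to 0.035, so no offset shared by number was seen. Whether same-numbered samples came from the same mice or sort cannot be decided this way, since such samples need not share an offset. With 2 groups alone, 694 genes and 1075 probe sets were called between activated and quiescent cells and 0 genes between irradiated and quiescent cells. In limma 542 genes had an unadjusted p under 0.05 in the latter, and 674 with the block. Between irradiated and quiescent cells, genes called numbered 4 with a pseudocount of 1 and 1 with quantile normalization, trend and robust moderation or array weights, and probe sets called numbered 12 with a pseudocount of 1 and 0 without the dimmest 50% (1411 with an unadjusted p under 0.05). With each array left out, genes called ran from 784 to 1051, 0 to 46 and 937 to 1228 in the 3 comparisons, and probe sets from 1461 to 1884, 5 to 109 and 1657 to 2183. For irradiated against quiescent cells, genes called numbered 14, 13 and 46 without quiescent replicate 1, 2 and 4, 0 without irradiated replicate 1 or 2 (752 and 695 in limma with an unadjusted p under 0.05) and 1 without activated replicate 2 or 3. Probe sets numbered 47, 61 and 109 without these quiescent arrays and 22 without irradiated replicate 4.

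E2f1 was called against quiescent cells with a pseudocount of 1 (adjusted p = 0.0493), quantile normalization (0.0475), 75th percentile scaling (0.0425), without the dimmest 50% (0.0109), trend and robust moderation (0.0395), array weights (0.0375), 2 groups (0.0143) and the mean of probe sets (0.0286). E2f8 was called with a pseudocount of 1 (0.0204), scaling (0.0491), without the dimmest 50% (0.0129) and with trend and robust moderation (0.0417). The call of E2f8 against irradiated cells was lost with a pseudocount of 64 (0.0775). With 2 groups alone the calls against irradiated cells were lost for both E2f8 (0.114) and E2f3 (0.105). Tested over all probe sets, the Rbl1 calls against quiescent cells were lost with a pseudocount of 64 (0.0506 for 1424156_at and 0.0618 for 1425166_at), 2 groups (0.113 and 0.172) and the block (0.145 and 0.098), and those against irradiated cells with 2 groups (0.0624 and 0.074) and the block (0.096 and 0.0758). The cause was not tested.

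Signs turned only for differences that were not called. Rb1 of irradiated against quiescent cells was -0.18 with the block and -0.36 with the mean of probe sets, and ran from -0.07 to 0.48 with an array left out. The Rb1 probe set 1444400_at of activated against irradiated cells was 0.07 with the block and -0.74 to 0.09 with an array left out. With an array left out, activated against quiescent cells ran from -0.35 to 0.06 for E2f5 and from -1.33 to 0.67 for Rbl2, and activated against irradiated cells from -0.08 to 0.21 for E2f4, -0.09 to 1.92 for Rbl2 and -0.12 to 0.97 for E2f3 (1434564_at). Without the dimmest 50% of genes, E2f4 and E2f7 were not tested, since their mean log2 values were among those left out. When the same rule was applied over all probe sets, that of E2f7 was kept and that of E2f4 was left out.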
